A study of Mus musculus with 72 samples.

Results

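The 10 genes described here are Mitf and 9 pigment genes of the melanocyte lineage, Tyr, Tyrp1, Dct, Pmel, Mlana, Slc45a2, Oca2, Gpr143 and Trpm1, chosen by name out of 50600 genes in the count table. They were followed in 72 RNA-seq libraries of 6 mouse melanoma lines, each given 4 treatments with 3 replicates. Cells kept for 18 h in 0.5% serum received mock (0.1% DMSO), 10 nM GRP (gastrin-releasing peptide), 1 µM of the GRP receptor antagonist RC-3095 (RC), or GRP together with RC, for 4 h. Lines 1057 and 1064 come from female mice with Tyr::NRASQ61K/°, Cdkn2a-/-, Tyr::CreA/° and Cdh1dF/dF, and express Grpr, the GRP receptor gene, on their own. Line 1181 comes from a male with Tyr::NRASQ61K/°, Cdkn2a-/-, °/° and Cdh1dF/dF, and line 1014 from a female with Tyr::NRASQ61K/°. Each of these was transfected with a CMV::Grpr/tGFP plasmid (1181-Grpr, 1014-Grpr) or with CMV::tGFP alone (1181-Ctrl, 1014-Ctrl) and kept under geneticin. All 6 lines therefore carry the NRAS transgene under the Tyr promoter, which is the promoter of 1 of the 10 genes, and 1057 and 1064 were also made with Cre under that promoter. Each genotype stands as 1 or 2 lines, so a difference between lines is not one between genotypes, and GRPR arises from its own locus in 2 lines and from a CMV promoter in the other 2.

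MITF is the transcription factor that directs melanocyte differentiation. Signals from receptors such as MC1R, KIT and EDNRB reach it, and it binds M-box and E-box sequences in front of many pigment genes. Its targets include tyrosinase (Tyr) and the related enzymes TYRP1 and DCT, which make melanin, PMEL, which forms the fibrils on which melanin is laid down, and MLANA, a melanosome protein. SLC45A2 and OCA2 are membrane transport proteins that set the conditions inside the melanosome, GPR143 is a receptor in the melanosome membrane, and TRPM1 is an ion channel whose gene is a known MITF target. In melanoma, a high level of these genes marks a differentiated state.

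RefSeq promoter sequences of GRCm38.p6, from 250 bases before to 50 bases after the start site, were at hand for 6 of the 10 genes. These genes had 9 such entries, since some have several start sites. The M-box TCATGTG, searched on both strands, was present in 4 of the 6 genes (Tyr, Tyrp1, Dct and, at its start site 1 only, Trpm1). It was present in 3.77% of 32851 mouse promoters of the same length, a share of entries and not of genes. The shorter E-box CATGTG, which every M-box contains, was present in 14.2% of them, and the E-box CACGTG in 7.15%. Mitf has several start sites. The window before its start site 3 held TGACGTCA, the cAMP response element, which 1.79% of promoters hold. The stretches below, 5′ to 3′ on the strand of the gene, were chosen because they hold the M-box or, for Mitf, the cAMP response element. These are shown in capitals. A match is a description of the sequence and not evidence of binding.
Tyr, chr7:87493513-87493587, minus strand: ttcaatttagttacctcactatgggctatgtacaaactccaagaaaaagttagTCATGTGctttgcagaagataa
Tyrp1, chr4:80834155-80834184, plus strand: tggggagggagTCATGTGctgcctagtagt
Dct, chr14:118052372-118052491, minus strand: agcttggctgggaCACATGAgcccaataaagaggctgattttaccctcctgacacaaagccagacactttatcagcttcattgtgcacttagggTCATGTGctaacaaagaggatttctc
Trpm1, chr7:64153645-64153744, plus strand: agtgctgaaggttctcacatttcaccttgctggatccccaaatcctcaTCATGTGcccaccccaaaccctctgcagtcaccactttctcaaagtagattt
Mitf, start site 3, chr6:97991583-97991682, plus strand: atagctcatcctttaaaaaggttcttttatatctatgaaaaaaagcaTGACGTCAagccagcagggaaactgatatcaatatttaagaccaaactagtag
The Tyr M-box began 22 bases before the RefSeq start site and the Tyrp1 M-box 47 bases before its own. Dct held 1 on each strand, at -232 (opposite strand, CACATGA as printed) and at -151. The annotation used below for gene positions starts Tyrp1 at chr4:80834123, upstream of the stretch shown, so its distance holds for the RefSeq start only.

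Before the results, 2 libraries went against their labels. The library labelled 1014-Ctrl mock replicate 2 had Grpr at 69.8 TPM (a gene's share of the library's transcripts, corrected for length) and the Y-linked gene Ddx3y at 45.3 TPM, although 1014 is a female line without the receptor plasmid and its other 11 libraries reached at most 0.05 and 0.0 TPM. The library labelled 1181-Grpr GRP+RC replicate 2 had both genes at 0 TPM, against 12.4 to 123 TPM for Grpr and 27.5 to 45.0 TPM for Ddx3y in the other 11. Where leaving out these 2 libraries changed a call or a value by much, the value without them is given beside the result. Over all treatments Grpr lay between 214 and 332 TPM in 1057 and between 539 and 1557 TPM in 1064. It lay between 155 and 842 TPM in 1014-Grpr and at no more than 0.14 TPM in 1181-Ctrl. Grpr was lower with GRP than in mock in 1064 (539 to 573 against 897 to 1557 TPM) and in 1057 (224 to 241 against 318 to 332 TPM). It was higher in 1014-Grpr (547 to 842 against 155 to 209 TPM) and in 1181-Grpr (28.0 to 123 against 12.4 to 26.9 TPM). These values are given as a description. The pair 1181-Ctrl and 1181-Grpr also differed in genes the plasmid does not carry: in the other 11 libraries of 1181-Grpr, Xist was 39.7 to 53.9 TPM (0.01 to 0.14 in 1181-Ctrl). Cdkn2a and Cdh1, which encodes E-cadherin, were also set beside the labelled genotypes, and were named after their values were seen. Cdkn2a, -/- in the labels of 1057, 1064 and 1181, was 53.6 to 73.4 TPM in 1181-Grpr, 4.21 to 7.34 TPM in 1181-Ctrl and between 8.33 and 20.9 TPM in 1057 and 1064. Cdh1, dF/dF in the same labels, was at most 0.08 TPM in 1057 and 1064, whose labels name Cre. In 1181, whose label has °/° in the place of Cre, Cdh1 was 12.05 to 22.3 TPM in 1181-Ctrl and 7.84 to 20.5 TPM in 1181-Grpr. A loss of its transcript was thus not seen in that line. In 1014, whose label names no Cdh1 allele, Cdh1 was lower than in 1181. It was 1.52 to 4.05 TPM in the other 11 libraries of 1014-Ctrl and 0.52 to 2.49 TPM in 1014-Grpr. A gene's total does not show which of its exons were read. The library labelled 1014-Ctrl mock replicate 2 had Xist at 35.1 and Cdkn2a at 57.9 TPM, near the values of 1181-Grpr. The library labelled 1181-Grpr GRP+RC replicate 2 had 162 and 260 TPM. These lay within the 118 to 218 and 225 to 266 TPM of the other 1014-Ctrl libraries. Whether the 2 libraries were exchanged was not tested. Melanocyte markers (8 of 8 at a median of 1 TPM or more in each line) summed to between 7372 and 56807 TPM, while keratinocyte, fibroblast, endothelial and Schwann lists summed to at most 14.2 TPM and the leukocyte list reached 100.1 TPM in 1181-Ctrl, mostly Cd68. The melanocyte list was Sox10, Mitf, Pax3, Tyr, Tyrp1, Dct, Pmel and Mlana. All but Sox10 and Pax3 are among the 10 genes, so its sum is no separate check of them. Sox10 alone lay between 788 and 1578 TPM without the 2 libraries. Libraries held 19512882 to 46862053 counts. The lowest counts among the 10 genes were those of Oca2 (4 to 24 reads per library) and Tyrp1 (30 to 103 reads) in 1181-Ctrl, where single reads move the level.

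At rest the 6 lines shared the same 10 genes but at very different levels. The summed level of the 10 genes was 0.729 to 0.801% of all TPM in the 3 mock libraries of 1181-Ctrl, 1.82 to 1.92% in 1057, 1.73 to 3.83% in 1064, 2.11 to 2.38% in 1181-Grpr, 4.93 to 5.73% in 1014-Grpr and 5.29 to 5.53% in 1014-Ctrl (without the library against its label). The leading gene differed too. Mlana made up 69.3% of the sum in 1057, Pmel 60.7% in 1181-Ctrl, and Dct 71.0% in 1014-Grpr, 64.6% in 1014-Ctrl, 42.4% in 1181-Grpr and 24.2% in 1064. Mitf, Tyr and Slc45a2 varied least, with 2.52, 1.73 and 2.29 times between the highest and the lowest line mean, and Tyrp1, Dct and Oca2 varied most, with 2091, 90.0 and 73.7 times. In cultured lines measured in bulk, fewer cells expressing a gene and less RNA per cell cannot be told apart.

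The lines were compared at rest with edgeR's quasi-likelihood test on the counts of the 18 mock libraries, for each of the 15 pairs of lines. A gene passed when its p, adjusted by Benjamini and Hochberg's method, was under 0.05, and was called where its log2 fold change was also above 1 in size. Of the 150 gene-by-pair tests, 67 were called. The share of all genes called was 25% for 1057 against 1064, 32.1% against 1014-Ctrl, 34.3% against 1014-Grpr, 35.6% against 1181-Ctrl and 31.8% against 1181-Grpr. It was 26.6%, 28.9%, 32.5% and 28.5% for 1064 against 1014-Ctrl, 1014-Grpr, 1181-Ctrl and 1181-Grpr. Among the remaining pairs it was 26.1% for 1014-Grpr against 1181-Ctrl, 16.4% for 1014-Ctrl against 1181-Ctrl, 14.2% for 1014-Grpr against 1181-Grpr, 6.32% between the versions of 1181, 0.0846% between those of 1014 and 0% for 1014-Ctrl against 1181-Grpr. Of the 10 genes, 1057 had 1 called higher and 4 lower against 1064, 1014-Ctrl and 1181-Grpr. It had 2 and 4 against 1014-Grpr and 6 and 1 against 1181-Ctrl. Line 1064 had 1 and 3 against 1014-Ctrl, 1 and 2 against 1014-Grpr, 6 and 1 against 1181-Ctrl and 3 and 2 against 1181-Grpr. Against 1181-Ctrl, 1014-Ctrl had 6 and 0 and 1014-Grpr 6 and 1. Against 1181-Grpr, 1014-Grpr had 1 and 1 and 1181-Ctrl 0 and 5. Line 1014-Ctrl had 0 and 0 against 1014-Grpr and 1181-Grpr. By gene, Dct and Mlana were called in 12 of the 15 pairs, Oca2 in 11, Tyrp1 in 10, Trpm1 in 6, Pmel and Gpr143 in 5, Mitf in 3, Slc45a2 in 2 and Tyr in 1. Without the 2 libraries these counts were 13, 12, 11, 11, 12, 5, 5, 3, 2 and 1 in the same order. The shares of all genes that depend on the library labelled 1014-Ctrl became 34% for 1057, 28.3% for 1064, 26.1% for 1181-Ctrl and 14.7% for 1181-Grpr, each against 1014-Ctrl, and 0.228% between the versions of 1014. Against 1181-Grpr, 1014-Ctrl then had 3 genes called where it had 0, Dct (1.94, adjusted p = 5.25e-05) and Tyrp1 (1.504, adjusted p = 0.0497) higher and Trpm1 lower (-2.74, adjusted p = 9.06e-06), and Slc45a2 passed (0.66). Blocking by replicate number took 3 further resting results past the threshold. These were Slc45a2 in 1057 against 1014-Ctrl (-0.35, adjusted p = 0.0493), Mitf in 1057 against 1014-Grpr (-0.56, adjusted p = 0.0454) and Trpm1 in 1057 against 1181-Ctrl (-1.41, adjusted p = 0.0441). The Trpm1 result was also called. This block joined same-numbered libraries of different lines. Such a pairing was not tested, and replicate numbers did not pair the libraries of 1057 across its own treatments.

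Mitf was highest in 1064, at 687, 414 and 441 TPM in the 3 mock libraries (514 ± 150.3, SD, n = 3). It was 299, 382 and 391 TPM in 1014-Grpr and 306 and 394 TPM in 1014-Ctrl, where the library against its label had 208 TPM. In 1057 the 3 libraries lay close together at 205, 205 and 202 TPM, and in 1181-Ctrl at 246, 238 and 224 TPM. In 1181-Grpr the libraries had 349, 208 and 205 TPM. Each library of 1064 lay above every library of the other lines, and the other lines overlapped or lay close to each other. On the log2 scale 1064 exceeded the next line, 1014-Grpr, by 0.75 (SE 0.231, adjusted p = 0.0126, edgeR), and no other neighbours in the order 1064, 1014-Grpr, 1014-Ctrl, 1181-Grpr, 1181-Ctrl, 1057 passed the test, with or without the 2 libraries. The order is one of TPM, whereas the test used counts scaled by TMM, the normalization of edgeR. On that scale 1057 lay 0.16 above 1181-Ctrl, with adjusted p = 0.574.

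Tyr, which encodes the rate-limiting enzyme of melanin synthesis, stood at 1224, 1184 and 1184 TPM in 1057 and at 758, 464 and 857 TPM in 1181-Ctrl, the highest and the lowest line. The log2 difference between them was 1.16 (SE 0.197, adjusted p = 0.000135), and this was the only pair in which Tyr was called. Tyrp1, the closest relative of Tyr in the pathway, did not follow it. It was almost silent in 1181-Ctrl, with 1.68, 1.47 and 4.86 TPM, low in 1057 with 97.4, 90.55 and 94.98 TPM, and reached 9690, 1567 and 3910 TPM in 1064. The replicates of 1064 lay far apart, with replicate 1 highest. Neighbours among 1014-Ctrl, 1064, 1014-Grpr and 1181-Grpr did not pass the test for Tyrp1, whereas 1057 lay below each of these lines (-5.69 against 1064) and above 1181-Ctrl (5.54, adjusted p = 6.78e-06). Dct, the remaining enzyme of the family, stood at 285, 399 and 560 TPM in 1181-Ctrl, 2806, 2681 and 2648 TPM in 1057 and 38299.7, 36103 and 37608 TPM in 1014-Grpr. These groups did not overlap, and the log2 difference of 1057 against 1014-Grpr was -3.52 (SE 0.427, adjusted p = 5.81e-06).

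The structural genes divided the lines in opposite ways. Pmel was 268, 262 and 245 TPM in 1057, whereas the other lines had 3729 TPM or more in each mock library, and the log2 difference of 1057 from the other 5 lines ran from -3.80 to -4.72. Mlana was highest in the same line, at 13300.4, 12807 and 12615 TPM, and lowest in 1181-Ctrl, at 813, 527 and 435 TPM. The log2 difference between these lines was 4.82 (SE 0.289, adjusted p = 5.88e-09). In 1064 Mlana had 8819, 4664 and 4344 TPM, below the values of 1057 and above those of the remaining lines.

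Of the transport genes, Slc45a2 ranged from 803 to 2009.7 TPM over the mock libraries, a narrow range beside Oca2. Oca2 was 0.43, 0.20 and 0.49 TPM in 1181-Ctrl, 5.15, 5.89 and 4.41 TPM in 1057, and 28.15 and 26.9 TPM in 1014-Ctrl, with 27.8 TPM in the library against its label. Gpr143 was lowest in 1181-Ctrl, at 27.0, 11.5 and 15.1 TPM, against 60.7 TPM or more in the mock libraries of the other lines. Trpm1 ran the other way. It was highest in 1181-Ctrl, at 168, 195 and 168 TPM, next in 1181-Grpr, at 115, 242 and 126 TPM, and lowest in 1014-Grpr, at 11.1, 10.97 and 8.23 TPM. Over the 24 means of line and treatment, the log2 level of Trpm1 had a Pearson correlation with Dct of -0.73, and Tyrp1 one of 0.92 with Dct, both given as descriptions because the means share lines and libraries.

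**Figure D1:**
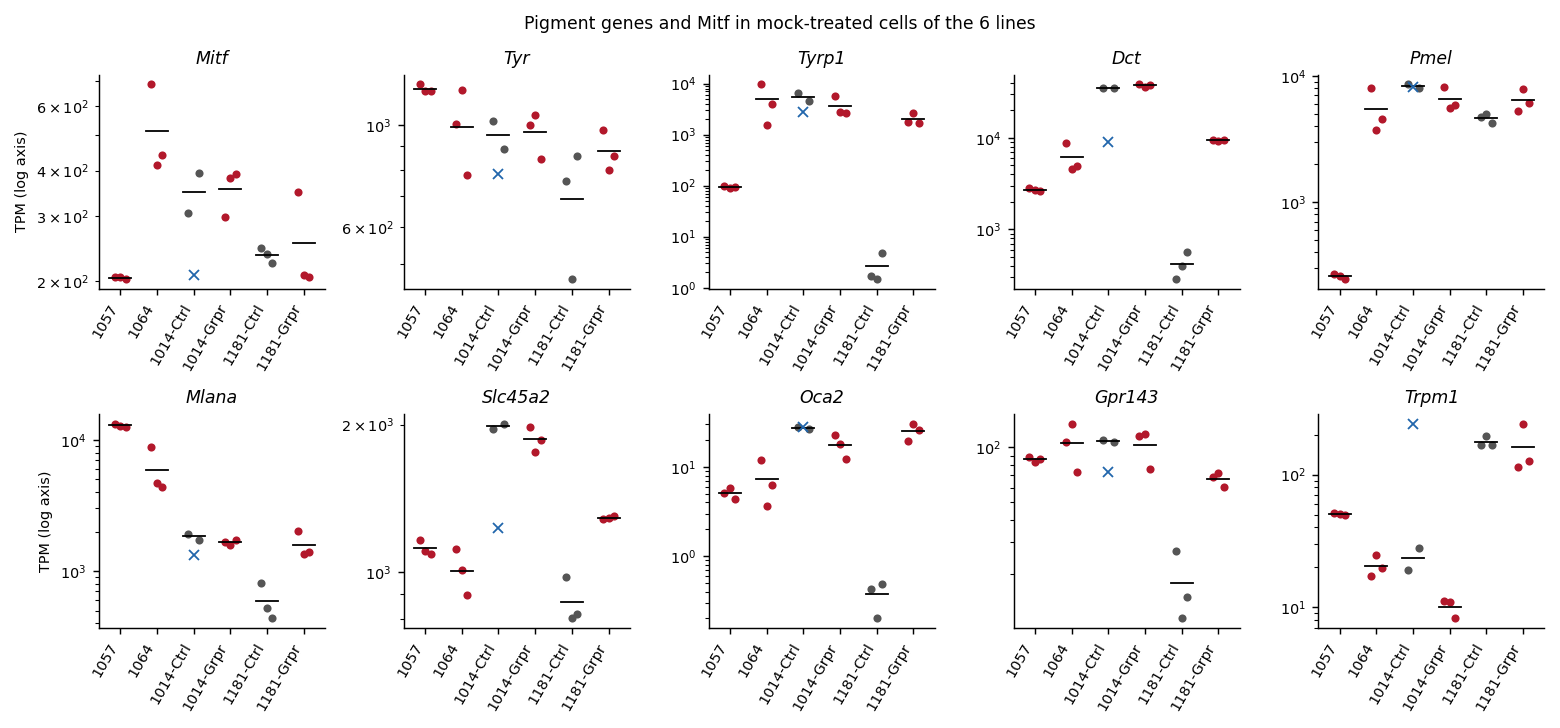
Level of each of the 10 genes in the mock libraries of the 6 lines, in TPM on a log axis. Red points are libraries of the 4 lines expressing GRPR, grey points those of the 2 control lines, the blue cross is the library labelled 1014-Ctrl mock replicate 2 and the black bar is the mean without it. Tyr and Slc45a2 stay within a narrow band, Tyrp1 and Oca2 fall to their lowest in 1181-Ctrl and Pmel in 1057.

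The 2 versions of line 1181 were far apart at rest. Against 1181-Grpr, 1181-Ctrl was lower in 6 of 10 genes that passed the test, with log2 differences of -9.66 for Tyrp1, -6.18 for Oca2, -4.55 for Dct, -1.98 for Gpr143, -1.48 for Mlana and -0.63 for Slc45a2. Of all genes, 9.73% passed in this comparison and 8.35% were lower in 1181-Ctrl. The library labelled 1014-Ctrl mock replicate 2 was part of the same fit. Without it the same 6 genes passed, with log2 differences from -9.68 to -0.63, beside 16.3% of all genes passed, 11.8% lower and 8.23% called. No mock library of 1181 was left out. Dct, for example, was 285 to 560 TPM in 1181-Ctrl and 9295 to 9502 TPM in 1181-Grpr. These versions also differed in Xist and Cdkn2a as given above, and the part of these differences in the result was not tested. Between 1014-Ctrl and 1014-Grpr, 0 of 10 genes passed with edgeR, 1 had an unadjusted p under 0.05 and 0 passed with DESeq2, while 0.0846% of all genes were called. Without the library against its label the count was also 0, and the smallest adjusted p was that of Trpm1 (0.133). Without it and with the replicate block Trpm1 passed and was called, 1.33 higher in 1014-Ctrl (adjusted p = 0.0399), against 0.139% of all genes called higher. That block also joined same-numbered libraries of different lines, a pairing that was not tested. Trpm1 depended on that library, in which it was 242 TPM against 19.2 and 27.9 TPM in the other 2. The resting difference of 1057 against 1014-Ctrl was -0.66 for Trpm1 with it and 1.37 (adjusted p = 0.000865) without it.

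GRP raised Mitf and Tyrp1 in 1057 and left the pigment genes divided. Of the 10 genes, 3 rose (Mitf, Tyrp1, Dct) and 4 fell (Gpr143, Trpm1, Tyr, Mlana), while Pmel, Slc45a2 and Oca2 did not pass the test. GRP changed 52.6% of the 14195 genes tested in this line, 25.7% upward and 26.9% downward, so that 7 of 10 is not far from the background. Tyrp1 was the 1 gene called beyond 1 on the log2 scale, against 6.46% of all genes. The median log2 fold change of the 10 genes was -0.04, and that of all genes -0.01.

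Mitf had 205, 205 and 202 TPM in the mock libraries of 1057 and 360.5, 384 and 376 TPM after GRP. The groups did not overlap, and the log2 fold change was 0.94 (SE 0.036, adjusted p = 1.7e-13, edgeR), a rise of 1.92 times. Tyrp1 went from 97.4, 90.55 and 94.98 TPM to 182, 178 and 194 TPM, a log2 fold change of 1.04 (SE 0.0396, adjusted p = 1.63e-13). Dct rose from 2806, 2681 and 2648 TPM to 3119, 3169 and 3102 TPM, by 0.28 on the log2 scale (SE 0.0347, adjusted p = 1.85e-06). The 3 genes that rose are thus the regulator and 2 of the 3 enzymes of melanin synthesis, and the remaining enzyme, Tyr, fell. Tyr was 1224, 1184 and 1184 TPM in mock and 999, 989 and 997 TPM after GRP, a log2 fold change of -0.19 (SE 0.0324, adjusted p = 5.65e-05).

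Gpr143 had the largest fall of the 10 genes, from 88.3, 83.2 and 85.7 TPM to 57.8, 59.0 and 55.6 TPM. Its log2 fold change was -0.50 (SE 0.0422, adjusted p = 1.04e-08). Trpm1 fell from 51.3, 50.2 and 49.6 TPM to 40.1, 40.3 and 41.0 TPM (-0.24), and Mlana from 13300.4, 12807 and 12615 TPM to 11147, 10894 and 11253 TPM (-0.15). Pmel and Slc45a2 had log2 fold changes of -0.02 (95% interval -0.11 to 0.070) and -0.07 (-0.14 to 0.0063), and Oca2, at 4.41 to 5.89 TPM, 0.04 (-0.19 to 0.28). TPM is a share of the library, and over 10075 genes its median moved by -0.08 on the log2 scale with GRP in this line, so fold changes are those of the TMM-scaled counts and differ slightly from ratios of TPM. In a single fit of all 72 libraries, where the spread is shared with lines whose replicates lie far apart, Mitf still passed (0.92, adjusted p = 0.00597), and Tyrp1 (adjusted p = 0.293) and the other 5 genes did not.

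**Figure D2:**
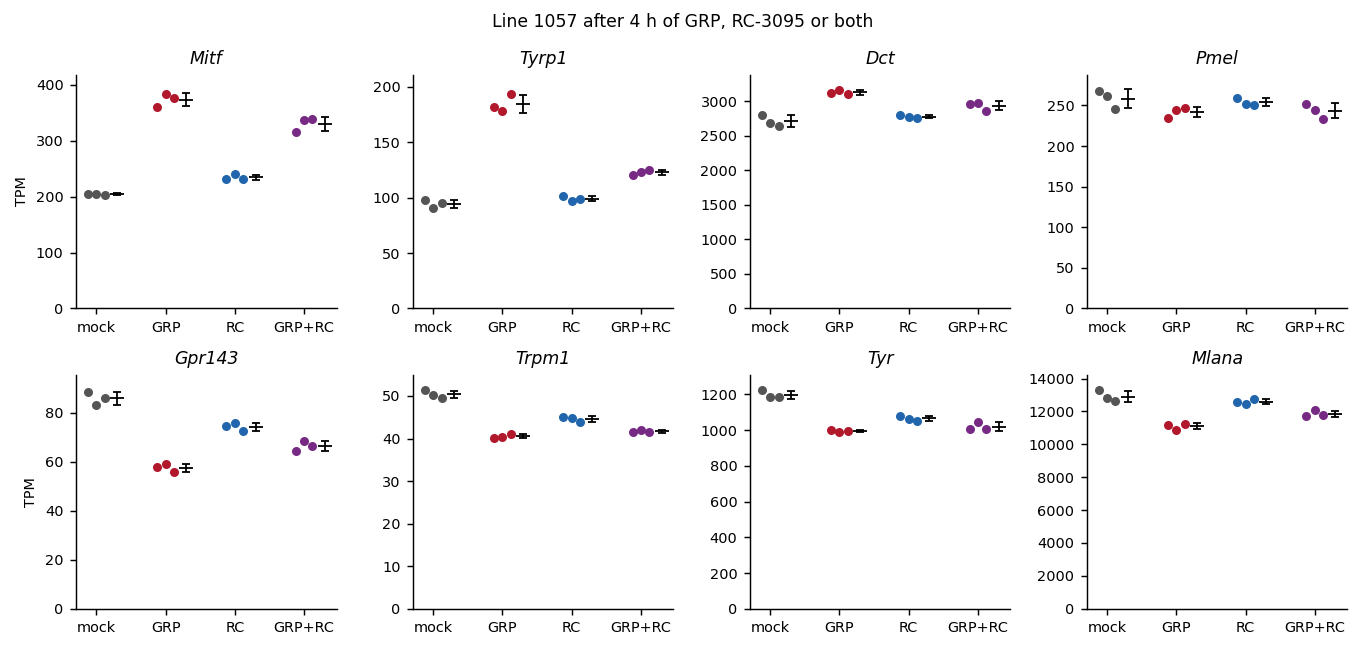
Level in TPM of 8 of the genes in the 12 libraries of line 1057, by treatment, with the mean and SD of the 3 replicates beside the points and each axis starting at 0. Mitf and Tyrp1 stand higher with GRP than in mock in each library, and Gpr143, Trpm1, Tyr and Mlana lower.

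With the antagonist added, levels in 1057 lay nearer to mock, and RC alone also moved some of the genes. With GRP and RC together, Mitf was 316, 337 and 338 TPM, between the mock and the GRP values, and Tyrp1 was 120.2, 123 and 125 TPM. Against GRP alone, adding RC lowered Tyrp1 by 0.61, Mitf by 0.20 and Dct by 0.11 on the log2 scale and raised Gpr143 by 0.19, so that 4 of 10 genes passed (24.7% of all genes), each moving back toward mock. Against mock, 6 of 10 still passed (44.3% of all genes), with Mitf at 0.75 (SE 0.0359), Tyrp1 at 0.43 (SE 0.0400), Dct at 0.17, Gpr143 at -0.32, Trpm1 at -0.22 and Tyr at -0.18. RC without GRP moved 5 of these genes in the same direction by less. Mitf was 232, 240.0 and 231 TPM, all above mock, with a log2 fold change of 0.24 (SE 0.0359, adjusted p = 7.09e-05), and Tyrp1 rose by 0.11 while Gpr143 (-0.16), Trpm1 (-0.13) and Tyr (-0.12) fell, 5 of 10 genes against 24.3% of all genes. These contrasts share the mock or the GRP libraries with the GRP comparison.

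In 1014-Grpr, Mitf was lower with GRP. Same-numbered libraries of this line deviated together, so the fit with the replicate number as a block is given beside the fit without it. Mitf was 299, 382 and 391 TPM in mock and 255, 257 and 301 TPM after GRP, lower in 3 of 3 same-numbered pairs although the groups overlap. Its log2 fold change was -0.29 in both fits, with adjusted p = 0.105 without the block and 2.09e-05 with it. Without the block 1 of 10 genes passed, Trpm1, against 29% of all 13730 genes. With the block 8 fell and 1 rose, against 26.3% of genes falling and 27.3% rising, and Pmel did not pass.

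Trpm1 in 1014-Grpr fell from 11.1, 10.97 and 8.23 TPM to 6.60, 6.12 and 5.82 TPM, with no overlap. The log2 fold change was -0.61 (SE 0.146, adjusted p = 0.00786) without the block and -0.59 (adjusted p = 1.41e-07) with it. Without replicate 1 or replicate 2 the unblocked result no longer passed (adjusted p = 0.0935 and 0.112). Gpr143 went from 116, 118 and 76.3 TPM to 87.3, 79.8 and 51.8 TPM, -0.40 with the block (adjusted p = 2.45e-07) and not past the threshold without it (adjusted p = 0.266). Tyr went from 997, 1051 and 842 TPM to 803, 745 and 621 TPM, again with no overlap, and its log2 fold change was -0.31 (blocked adjusted p = 4.07e-07, unblocked 0.0963). With the block Oca2 (-0.22), Slc45a2 (-0.18), Mlana (-0.14) and Dct (-0.11) also fell. Tyrp1, at 5767, 2717 and 2660 TPM in mock and 5590, 2814 and 2682 TPM after GRP, had a blocked log2 fold change of 0.11 (adjusted p = 0.0237), the 1 rise in this line, although its TPM was lower in 1 of the 3 pairs. The median TPM of 10075 genes moved by -0.10 on the log2 scale with GRP in 1014-Grpr.

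Adding RC to GRP in 1014-Grpr brought Mitf to 287, 336 and 379 TPM. Against GRP alone, 0 of 10 genes passed without the block (2 had an unadjusted p under 0.05, and 1 passed with DESeq2), against 11.8% of all genes. With the block 7 of 10 rose, among them Trpm1 by 0.45, Gpr143 by 0.30, Tyr by 0.29 and Mitf by 0.22, against 17% of all genes rising. GRP+RC against mock left 0 genes past the threshold without the block (0 with an unadjusted p under 0.05) and 1 with it, Tyrp1 at 0.13 (adjusted p = 0.0312, 17.3% of all genes). RC alone gave 0 in both fits (edgeR, 0 at an unadjusted p under 0.05 without the block, 0 with DESeq2), with Tyrp1 at 0.08 and Mitf at -0.01 under the block.

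**Figure D3:**
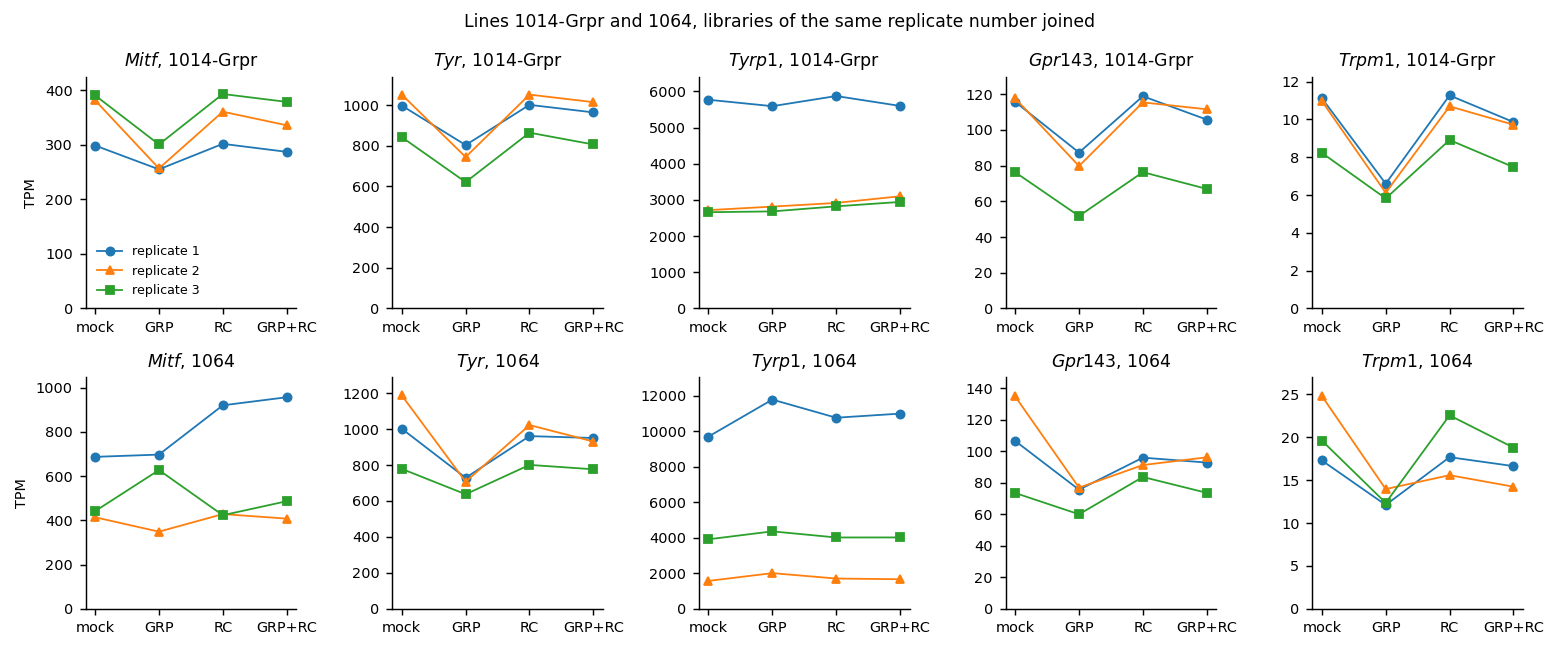
Level in TPM by treatment in 1014-Grpr (top) and 1064 (bottom), with lines joining libraries of the same replicate number. In 1014-Grpr each Mitf line dips at GRP and returns toward mock with GRP+RC, and in 1064 replicate 1 runs far above the others for Tyrp1.

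In 1064 the replicates of Mitf and Tyrp1 lay far apart. Mitf was 687, 414 and 441 TPM in mock and 697, 348.5 and 627 TPM after GRP, higher in 2 of 3 same-numbered pairs, with a log2 fold change of 0.25 (SE 0.390, 95% interval -0.62 to 1.11), and it did not pass with the block either (adjusted p = 0.25). Without the block 0 of 10 genes passed with edgeR (3 at an unadjusted p under 0.05, 0 with DESeq2), against 6.38% of all 13794 genes. The replicate numbers paired the libraries in this line too, and with the block 1 rose and 4 fell, against 20.5% and 23% of all genes. Tyrp1 rose, from 9690, 1567 and 3910 TPM to 11772, 2005 and 4355 TPM, higher in 3 of 3 pairs, by 0.39 (blocked SE 0.0550, adjusted p = 0.00038, unblocked SE 0.902). The genes that fell with the block were Trpm1 (17.3, 24.8 and 19.6 TPM to 12.1, 14.0 and 12.35 TPM, -0.55), Gpr143 (107, 135 and 73.6 TPM to 75.7, 77.0 and 60.04 TPM, -0.42), Tyr (1002, 1187 and 779 TPM to 729, 707 and 637 TPM, -0.38) and Mlana (-0.15). Trpm1 and Tyr did not overlap between mock and GRP. Adding RC to GRP lowered Tyrp1 by 0.26 and raised Tyr by 0.26 with the block (21.2% of all genes), and no gene passed without it (0 at an unadjusted p under 0.05, 0 with DESeq2). The median TPM of 10075 genes moved by -0.14 with GRP in this line.

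In 1181-Grpr and in both control lines GRP moved none of the 10 genes past the threshold. In 1181-Grpr and in 1181-Ctrl, 0 of 10 genes passed with edgeR, 0 had an unadjusted p under 0.05 and 0 passed with DESeq2, and 0% of all genes passed in either. In 1181-Grpr, which had the lowest Grpr level of the receptor lines, the 95% intervals without the library against its label ran from -0.61 to 0.60 for Mitf and from -0.24 to 0.14 for Tyr. Mitf in 1181-Ctrl had a log2 fold change of -0.07 (-0.26 to 0.13). In 1014-Ctrl 0 of 10 passed with edgeR or DESeq2 (0% of all genes) and 1 had an unadjusted p under 0.05, Trpm1 at -2.07, which rested on the library against its label and was -0.02 without it. Mitf in 1014-Ctrl was 0.20 with that library and 0.00 without it, with an interval of -0.30 to 0.29. With the block and without that library Tyr rose by 0.099 when RC was added to GRP in 1014-Ctrl (adjusted p = 0.0365), against 0.604% of all genes.

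**Figure D4:**
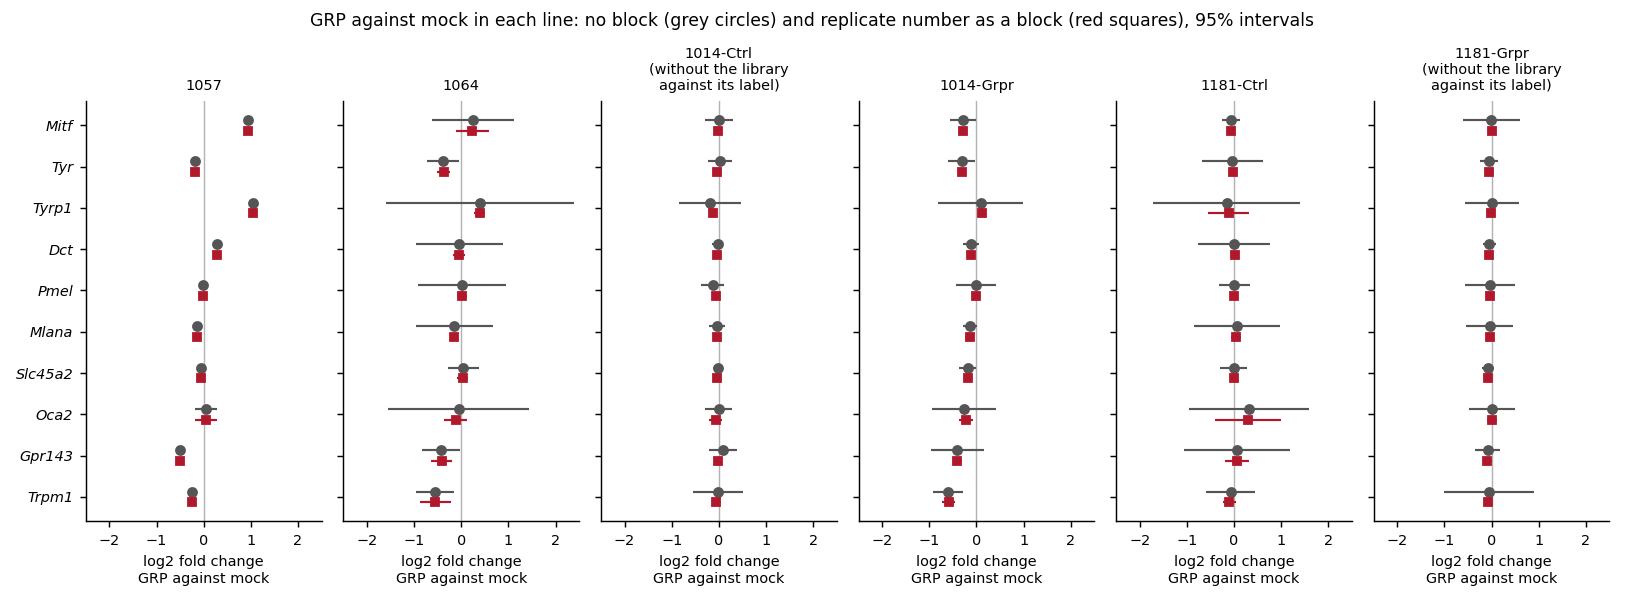
Log2 fold change of GRP against mock for each of the 10 genes in each line, with 95% intervals. Grey circles are fits without a block and red squares fits with the replicate number as a block, and the panels of 1014-Ctrl and 1181-Grpr leave out the library against its label. Mitf lies at 0.94 in 1057 and at -0.29 in 1014-Grpr, and blocking narrows the intervals in 1064 and 1014-Grpr.

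The opposite responses of Mitf in 1057 and 1014-Grpr were tested as a difference, in 1 fit of all 72 libraries. The GRP effect on Mitf was 1.22 higher in 1057 than in 1014-Grpr on the log2 scale (SE 0.343, 95% interval 0.54 to 1.91, adjusted p = 0.0417, edgeR), and 2.02% of all genes passed in this contrast. Comparisons between these lines were added after the data had been seen. The result no longer passed without replicate 2 (adjusted p = 0.332), without replicate 3 (0.460) or without the filter on low counts (0.0600). Of 6 pairs of GRPR-expressing lines this was the 1 pair, and Mitf the 1 gene, that passed without the block. With the block, although replicate numbers did not pair the libraries of 1057, Mitf also differed between 1057 and 1181-Grpr (0.92, adjusted p = 0.000418) and between 1057 and 1064 (0.69, adjusted p = 0.0141), and Tyrp1 between 1057 and each of 1014-Grpr (0.92), 1181-Grpr (1.03) and 1064 (0.63). The share of all genes that passed was 17.9% for 1057 against 1181-Grpr, 10.7% against 1064 and 14.1% against 1014-Grpr. Tyr fell further in 1064 than in 1181-Grpr with the block (-0.32, adjusted p = 0.0214, 21.3% of all genes).

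With the block and without the 2 libraries more of these differences passed, as did more of all genes. Mitf, Tyrp1 and Dct responded higher in 1057 than in 1064 (0.69, 0.63 and 0.31, with 20.9% of all genes passing) and than in 1014-Grpr (1.22, 0.92 and 0.38, 24.1%). Mitf, Tyrp1 and Slc45a2 responded higher in 1064 than in 1014-Grpr (0.53, 0.29 and 0.23, 20%). Against 1181-Grpr, 3 genes responded higher and 2 lower in 1057 (Tyr -0.17, Gpr143 -0.44, 30.1%), 1 higher and 3 lower in 1064 (Tyr -0.33, Gpr143 -0.32, Trpm1 -0.49, 32.6%), and 4 lower in 1014-Grpr (Mitf -0.31, Tyr -0.27, Gpr143 -0.33, Trpm1 -0.54, 31.9%). Tyr, Gpr143, Trpm1 and Mlana did not pass between 1057, 1064 and 1014-Grpr in any of these fits, the nearest being Trpm1 in 1057 against 1014-Grpr (adjusted p = 0.0524). For Tyr the unblocked 95% interval of 1057 minus 1014-Grpr was -0.38 to 0.59, and for Gpr143 -0.94 to 0.71.

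Averaged over the 4 GRPR-expressing lines, GRP lowered Tyr by 0.25 (SE 0.0856, adjusted p = 0.0257), and this was the 1 of 10 genes that passed, against 25.9% of all genes. Without the 2 libraries Gpr143 (-0.37, adjusted p = 0.0324) and Trpm1 (-0.38, adjusted p = 0.0261) passed as well (28.9% of all genes). With the block Mitf (0.21, adjusted p = 0.00916) and Tyrp1 (0.37) rose and Tyr (-0.24), Gpr143 (-0.37) and Mlana (-0.13) fell (43.8% of all genes), and without the 2 libraries Trpm1 (-0.37) and Slc45a2 (-0.083) fell as well (51.9%). Mitf averaged 0.21 in the unblocked fit, with adjusted p = 0.21, from line values of 0.94 in 1057, 0.25 in 1064, -0.29 in 1014-Grpr and -0.0079 in 1181-Grpr. Over the 2 control lines 0 of 10 genes passed with edgeR, 1 had an unadjusted p under 0.05 and 1 passed with DESeq2, while 1.09% of all genes passed. Without the 2 libraries the count was 0 with edgeR and 0% of all genes passed.

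The GRP effect in 1014-Grpr was also set against that in 1014-Ctrl. Of the 10 genes, 0 differed without the block (edgeR, 1 at an unadjusted p under 0.05, 0 with DESeq2), against 13.6% of all genes. With the block and without the 2 libraries, 5 were lower in 1014-Grpr, Trpm1 (-0.52), Gpr143 (-0.37), Tyr (-0.27), Mitf (-0.26) and Slc45a2 (-0.14), and Tyrp1 was higher (0.25), against 17.9% lower and 21.4% higher of all genes. With the block and all libraries, Gpr143 (-0.64), Mitf (-0.51) and Tyr (-0.41) were lower (11.9% of all genes). For 1181-Grpr against 1181-Ctrl 0 of 10 differed (edgeR, 0 at an unadjusted p under 0.05, 0 with DESeq2), and 0% of all genes did.

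The receptors that signal to Mitf fell with GRP where the pigment genes were divided. In 1057, 4 of the 5 receptor genes fell, against 26.9% of all genes, and their median log2 fold change was -0.83 beside -0.01 for all genes. Erbb3, a neuregulin receptor, had 100.4, 98.2 and 97.7 TPM in mock and 31.2, 28.3 and 29.1 TPM after GRP (-1.67, adjusted p = 6.64e-16, edgeR). Ednrb, the endothelin receptor, went from 181, 179 and 181 TPM to 73.5, 73.2 and 75.3 TPM (-1.21). Mc1r, the receptor for melanocyte-stimulating hormone, fell by 0.83 and Kit, the receptor for stem cell factor, by 0.53, and Met did not pass. The mock and GRP values of these 4 receptors did not overlap.

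In 1064, 3 of the 5 receptors fell and were called without a block (0.797% of all genes were called lower). Mc1r went from 343, 255 and 186 TPM to 79.1, 63.4 and 66.2 TPM (-1.77, adjusted p = 0.00413), and Erbb3 (-1.77) and Kit (-1.27) fell too, with 5 of 5 falling under the block, against 23% of all genes. In 1014-Grpr, where 4 of the 5 were measured, 1 fell without the block, Erbb3, from 292, 285 and 370 TPM to 216, 163 and 244 TPM (-0.50, adjusted p = 0.0276), and 3 with it (Erbb3, Kit and Mc1r), against 12.7% and 26.3% of all genes. In 1181-Grpr, 1014-Ctrl and 1181-Ctrl the median log2 fold changes of the receptors were -0.05, 0.06 and 0.01 without the 2 libraries, and none passed with edgeR.

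Among the other genes of the pathway, Mitf's close relatives and regulators moved in both directions. Of the MiT family, Tfeb fell in 1057 (-0.31) and Tfeb (0.28) and Tfe3 (0.23) rose in 1014-Grpr. Of 13 melanocyte regulators, 4 rose and 5 fell in 1057 (25.7% and 26.9% of all genes), where Bhlhe40, a repressor of transcription, was called higher (1.02) and Sox9 lower (-1.07). In 1064 the called regulator was Sox5 (-1.26), and in 1014-Grpr Pou3f2 (1.15), from 2.42, 4.49 and 3.25 TPM to 5.55, 9.38 and 6.13 TPM. List genes named here without being called in that line were chosen after their values were seen. Sox10, an activator of Mitf, had log2 fold changes of -0.01 in 1057, 0.06 in 1064 and 0.11 in 1014-Grpr, with adjusted p of 0.835, 0.849 and 0.208, and passed in 1014-Grpr with the block (adjusted p = 0.00602). With the block 1 regulator rose and 5 fell in 1064, and 6 rose and 3 fell in 1014-Grpr, beside 20.5% and 23%, and 27.3% and 26.3% of all genes. Of 23 genes of melanosome biogenesis and transport, 6 rose and 8 fell in 1057, 0 rose and 1 fell in 1064, and 4 rose and 9 fell in 1014-Grpr, beside 25.7% and 26.9%, 3.62% and 2.76%, and 16.3% and 12.7% of all genes. With the block these melanosome counts were 0 and 7 in 1064 and 6 and 13 in 1014-Grpr, read against the same blocked shares of all genes.

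Rab27a, which links melanosomes to their motor protein, fell in each of these 3 lines. It went from 30.4, 30.1 and 30.4 TPM to 11.8, 12.1 and 12.6 TPM in 1057 (-1.24, adjusted p = 1.08e-13), and from 61.1, 65.6 and 42.3 TPM to 16.7, 13.1 and 17.2 TPM in 1064 (-1.72, adjusted p = 0.00931). In 1014-Grpr it went from 267, 301 and 185 TPM to 140, 142 and 83.8 TPM (-0.94, adjusted p = 0.0184). Mock and GRP values did not overlap in any of the 3 lines. Slc7a11, the cystine transporter, was called higher in 1014-Grpr (1.54, adjusted p = 0.00459) and fell in 1057 (-0.23, adjusted p = 3.6e-05). Of the 7 other Mitf targets on the list, 1 of 5 measured fell in 1057 and 1 of 4 in 1014-Grpr, in both cases Cdk2 (-0.65, and -0.55 with adjusted p = 0.046), a cell cycle kinase gene that lies beside Pmel, against 26.9% and 12.7% of all genes falling. With the block 2 rose and 2 fell of 4 in 1064 (20.5% and 23% of all genes), and 1 rose and 3 fell of 4 in 1014-Grpr (27.3% and 26.3%).

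The genes most like the pigment genes over the 24 means of line and treatment were sought among 16519 genes, as a description of likeness in level across lines that share libraries. With the mean log2 level (CPM) of the 9 pigment genes, Phyh had a Pearson correlation of 0.977, Fbln5 and Nek6 0.968, Akr1b8 0.962 and Vps37b 0.960 (without the 2 libraries the fifth was Ifitm3, at 0.960). Phyh was at the pseudocount in 1181-Ctrl, the line in which the pigment genes were lowest. With Mitf the highest were Tle3 and Ipo13 at 0.967, Cnnm4 at 0.961, Tmed3 at 0.960 and Elob at 0.959. Tle3, a corepressor, was highest in 1064 as Mitf was. The 9 pigment genes themselves ranged from -0.61 (Trpm1) to 0.63 (Mlana) in their correlation with Mitf.

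In the GRCm38 annotation Mitf lies at chr6:97807052-98021349, Tyr at chr7:87424771-87493512, Tyrp1 at chr4:80834123-80851719, Dct at chr14:118012790-118052244, Pmel at chr10:128704195-128720238, Mlana at chr19:29697824-29708634, Slc45a2 at chr15:11000721-11029233, Oca2 at chr7:56239760-56536518, Gpr143 at chrX:152781921-152808646 and Trpm1 at chr7:64153835-64269775. Tyr and Dct are on the minus strand and the others on the plus strand. The counts are per gene, so transcripts from different start sites of Mitf cannot be told apart. The exons of 8 of the 10 genes overlap no other gene. Of the exon bases of Pmel, 6.06% are overlapped on the other strand by Cdk2 and Dgka, and of those of Trpm1, 0.0814% by Gm44722. The strand setting used in counting is not given in the sources used here, so reads of Pmel from these stretches may include those of its neighbours.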

How the data were processed

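RNA from 72 cultures, at least biological triplicates per the study's methods, was sequenced as TruSeq Stranded mRNA libraries. The authors aligned reads with STAR to mm10 (GRCm38.p5) with GENCODE M13, checked them with FastQC 0.11.5 and deposited raw counts and TPM values for 50600 genes. The strand setting of the counting is not given in the sources used here. The deposited TPM of line 1057 have a decimal comma and were converted. Whether the libraries of 1057 were prepared or sequenced apart from the others was not tested. Such handling could not be told apart from the line in comparisons of 1057 with other lines. Gene names were matched for 99.6% of identifiers, and libraries held 19512882 to 46862053 counts. Counts of mapped reads give no molecule counts, so precision comes from the spread between replicates.

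Counts were filtered with filterByExpr, scaled (TMM) and fitted in edgeR 4.0.16 (R 4.3.3), whose quasi-likelihood test was run in 1 fit per line, with Benjamini-Hochberg adjustment over all genes tested. The 18 mock libraries were fitted together for the resting comparisons, and all 72 for averages and for differences between GRPR-expressing lines, the latter added after the data had been seen. A gene passed at an adjusted p under 0.05 and was called with an absolute log2 fold change above 1 as well. The procedure was tested on simulated data. Alternatives were DESeq2 1.42.0, RLE size factors, no filter on low counts, limma 3.58.1 on log2(TPM + 1), leaving out each replicate, 1 fit of all 72 libraries and the replicate number as a block. In the fit of the mock libraries this block was shared by all lines, and a pairing between lines was not tested. Fits without the 2 libraries against their labels were added after the data had been seen. The 10 genes and the gene lists were chosen with earlier results of these data known, and the genes named are the 10 members, at most 4 called genes of each list with the largest fold changes and the 5 genes most like the pigment genes and Mitf. Other list genes were named after their values were seen. Likeness across 24 means used log2(CPM + 0.5).

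Replicate numbers were taken to pair libraries where each same-number correlation of deviations from the group means was over 0.1. This held in 1064 (lowest 0.694), 1014-Grpr (0.569) and 1181-Ctrl (0.893), in 1014-Ctrl (0.587) and 1181-Grpr (0.654) only without the library against its label, and not in 1057 (lowest -0.374). Replicates of a group differed beyond counting noise (chi-square per degree of freedom of 2.56 or more in 72 pairs), and each library was counted as 1 sample. This spread does not by itself show that the replicates were independent cultures, which rests on the study's methods.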

Additional observations from a re-analysis of the deposited data

Results flagged for a closer look

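The GRP effect on Mitf differed between 2 lines that express GRPR, by 1.22 on the log2 scale (1057 minus 1014-Grpr, SE 0.343, adjusted p = 0.0417, edgeR). It was singled out because a test of the difference itself passed. Mitf was higher with GRP in 3 of 3 same-numbered pairs in 1057, although replicate numbers did not pair the libraries of that line, and in 0 of 3 in 1014-Grpr. The result passed under 6 of 9 alternatives. These include both fits without the 2 libraries against their labels, neither of which is labelled as 1057 or 1014-Grpr. The result stayed at 1.22 in both. It did not pass without replicate 2, without replicate 3 or without the filter on low counts. The comparison was added after the data had been seen.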

How the results depend on the processing

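Of the 196 member results that passed under at least 1 setting, 1658 alternative values kept their direction and their side of the threshold, 156 passed where the value reported did not, 95 no longer passed and 16 changed sign. Counts of member-by-comparison results called were 1 of 60 for GRP against mock, 0 for RC against mock, 0 for GRP+RC against mock and 0 for GRP+RC against GRP. At an adjusted p alone they were 8, 5, 6 and 4, and with 1 fit of all 72 libraries RC and GRP+RC against mock gave 1 each. For the averages over lines, 0 of 20 became 1 with DESeq2 and 1 at an adjusted p alone. Between GRPR-expressing lines, 1 became 0 without the filter on low counts, 2 with the replicate block and 2 without the 2 libraries with the replicate block, and 0 to 1 on leaving out a replicate. The 67 called at rest stayed between 59 and 75 under other fits and became 86 at an adjusted p alone.

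Of the sign changes, 13 were of Trpm1 in comparisons with the library labelled 1014-Ctrl mock replicate 2. In 1014-Ctrl, RC against mock was -1.94 for Trpm1, -2.497 to 0.036 on leaving out a replicate, 0.11 without the 2 libraries and 0.072 without them with the replicate block, and GRP+RC against mock was -1.96, -2.55 to 0.10, 0.094 and 0.063. The GRP effect on Trpm1 in 1014-Grpr minus 1014-Ctrl was 1.45, -0.52 to 1.96, -0.59 and -0.52 in the same order. At rest, Trpm1 in 1057 against 1014-Ctrl was -0.66, -1.16 to 1.38, 1.37 and 1.26, and in 1064 against 1014-Ctrl it went from -1.97 to 0.048 without the 2 libraries. The other 3 were of Tyrp1, GRP effect in 1014-Grpr minus 1014-Ctrl, which went from 0.00076 to -0.0068 without the filter on low counts and ranged from -0.12 to 0.13 on leaving out a replicate. The replicate block changed which genes passed for treatments in 1064 and 1014-Grpr, in 4 of the 6 pairs of GRPR-expressing lines, in the average over the 4 such lines, in 1014-Grpr minus 1014-Ctrl and in 3 resting results, as given beside those results, and for no treatment in 1057, 1181-Ctrl, 1181-Grpr or, with all libraries, 1014-Ctrl. The cause of the other changes was not tested. Depth limits Oca2 and Tyrp1 in 1181-Ctrl.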
